A study of Mus musculus with 21 samples.

Results

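The late lung response to bleomycin was described from 5 arrays of lungs taken 6 weeks after the drug, set against 6 control arrays of the same 3 inbred mouse strains. These 11 arrays were chosen by the stage in their titles from the 21 of the series. Each array held the pooled total RNA of 3 to 5 mice, from the whole right lung, hybridised to an Affymetrix mouse array. At 6 weeks there were a male and a female pool of A/J, a female pool of C57BL/6, and a male and a female pool of C3H/HeJ. The treated mice had carried an osmotic minipump, a small implanted reservoir that releases the drug slowly, with bleomycin at 100 mg/kg for males and 125 mg/kg for females. Dose and sex can therefore not be told apart. The control group had a male and a female pool of each strain, and the sources used here state neither what those mice received nor the age of any group. A further 8 arrays of these strains at 3 weeks served for the comparison of the late with the earlier stage, 4 of A/J (males at 80 and 100 mg/kg, females at 100 and 125 mg/kg) and a male pool at 100 mg/kg and a female pool at 125 mg/kg of each other strain. Each value is that of 1 pool, so the spread between mice within a pool is not seen, and nothing in the labels says that the pools of a group were independent experiments.

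Bleomycin is an antitumour antibiotic that breaks DNA strands and injures the lung, where the enzyme that inactivates it is scarce. In mice the injury passes through an inflammatory stage, with neutrophils and monocytes entering the lung, into a stage in which fibroblasts deposit collagen and other matrix. Macrophages clear debris and secrete matrix-degrading proteases throughout, damaged cells hold their cycle through the transcription factor p53, and in many mouse models the scar partly resolves at late times.

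The lung identity of the samples was clear from its markers. These were Sftpc and Sftpb of type 2 alveolar cells, Scgb1a1 of club cells, Ager of type 1 alveolar cells, and Pecam1 and Cdh5 of endothelium. All lay at or above percentile 88.7 of the 9079 genes tested, which leave out dim probe sets, on each of the 11 arrays. Xist and the Y-linked Eif2s3y matched the labelled sex on each of them. Deposited array medians were 61.2 to 109 intensity units at 6 weeks and 82.8 to 111 in controls, and pairs of arrays correlated at 0.921 to 0.981 across genes. The ratio of 3′ to 5′ Gapdh control probe sets, which rises as RNA degrades, was 2.08 on the C3H/HeJ female 6 week array, at most 1.07 on the other 6 week arrays and 0.853 to 1.34 in controls. Values given below are log2 of the quantile-normalized intensity plus 16, here called log2 signal, and they compare arrays for 1 gene, not 1 gene with another. Changes are log2 differences at 6 weeks minus control, adjusted for strain, with the standard error (SE) of the fit, and a gene was called when limma's Benjamini-Hochberg adjusted p was under 0.05.

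At 6 weeks 94 genes were called higher and 29 lower than in controls, of 9079 tested. This was 1.04% of genes in the upward and 0.319% in the downward direction, and 1.35% in all, while 1342 genes had an unadjusted p under 0.05. The upward share of the calls was 76.4%. On the deposited scaling, without quantile normalization, 56 genes were higher and 70 lower, an upward share of 44.4%, with the median of all genes shifted by -0.108 against -0.00506 after normalization. Among the called genes 18 changed by more than 2-fold, 17 of them upward, where 0.22% of all genes tested changed that much. For 121 of the 123 the pool at 6 weeks differed in the same direction from the control pool of its own strain and sex in 5 of 5 pairs. The exceptions, each 4 of 5, were Pla2g7 and Actc1. Among all genes 6.93% were higher and 5.95% lower in all 5 pairs. The calls were made on these same arrays, so the agreement of the pairs follows largely from the choice of genes and is no separate support. Of the 123 calls, 58 were also called on the deposited scaling. With strain and sex together as a block in the fit, 42 genes were called, 37 higher and 5 lower, and 38 of them were among the 123. Leaving out the C57BL/6 late array left 47 calls, and leaving out the C3H/HeJ female late array, with its high Gapdh ratio, left 107. The count was 72 without the A/J male control, 69 without the A/J female control, 76 without the C57BL/6 male control, 64 without the C57BL/6 female control and 69 without the C3H/HeJ male control. With tissue of whole lung, fewer cells of a type and less RNA per cell cannot be told apart.

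**Figure D1:**
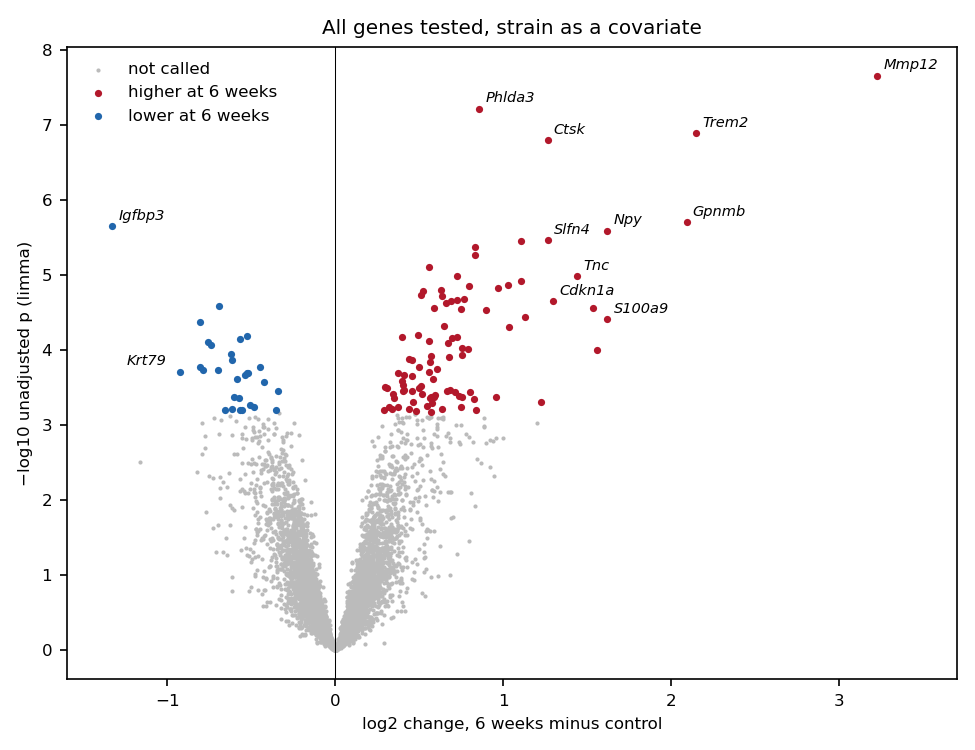
Change of each of the 9079 genes tested (x axis, log2, 6 weeks minus control) against the unadjusted p of limma (y axis, −log10), with 94 called genes that were higher in red and 29 that were lower in blue. Mmp12 stands apart at a change of 3.23, and Igfbp3 has the lowest change of the called genes at -1.33.

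The 3 largest changes were those of Mmp12, Trem2 and Gpnmb, genes known from macrophages. Mmp12 encodes macrophage elastase, which cleaves elastin. Trem2 is a lipid-sensing receptor of macrophages and microglia, Gpnmb a glycoprotein of lipid-laden and injury-associated macrophages, and Ctsk the collagen-cleaving lysosomal protease cathepsin K. Ctsd is the lysosomal protease cathepsin D and Cdkn1a the cell cycle inhibitor p21, a classic target of p53. The 250 bases before the annotated starts of 5 of these genes are shown as examples from the macrophage, lysosome and p53 lists described next, each a called rise chosen after its values were seen, from RefSeq on the GRCm38.p6 build of the C57BL/6J genome. Capitals mark matches, on either strand, to the AP-1 motif TGANTCA, the CLEAR-type E-box TCACGTG of lysosomal genes, the M-box TCATGTG, the PU.1 motif GAGGAAG, the TATA box TATAAA and a core of paired p53 half-sites, CATG and CATG with 6 bases of any kind between them.
Mmp12, start 1, chr9:7344147-7344396, plus strand: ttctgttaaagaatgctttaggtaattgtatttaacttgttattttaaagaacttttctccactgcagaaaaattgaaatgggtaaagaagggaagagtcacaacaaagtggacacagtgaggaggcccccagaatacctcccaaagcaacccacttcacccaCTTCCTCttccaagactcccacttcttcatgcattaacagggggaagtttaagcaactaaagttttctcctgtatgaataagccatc
Mmp12, start 2, chr9:7347124-7347373, plus strand: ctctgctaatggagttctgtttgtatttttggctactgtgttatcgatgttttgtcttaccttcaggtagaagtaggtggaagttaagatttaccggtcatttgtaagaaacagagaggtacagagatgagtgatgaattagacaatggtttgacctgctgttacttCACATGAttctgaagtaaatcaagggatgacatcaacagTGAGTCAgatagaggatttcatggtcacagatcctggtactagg
Trem2, chr17:48346151-48346400, plus strand: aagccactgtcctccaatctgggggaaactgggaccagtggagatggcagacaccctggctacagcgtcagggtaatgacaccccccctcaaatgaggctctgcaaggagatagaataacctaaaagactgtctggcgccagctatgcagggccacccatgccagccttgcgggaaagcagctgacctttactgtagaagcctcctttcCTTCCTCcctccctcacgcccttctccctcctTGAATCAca
Ctsk, chr3:95498960-95499209, plus strand: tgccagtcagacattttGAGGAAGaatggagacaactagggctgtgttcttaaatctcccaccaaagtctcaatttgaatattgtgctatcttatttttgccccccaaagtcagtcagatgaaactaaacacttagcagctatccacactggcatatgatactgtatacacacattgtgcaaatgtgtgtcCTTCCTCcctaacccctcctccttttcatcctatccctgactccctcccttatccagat
Ctsd, chr7:142387828-142388077, minus strand: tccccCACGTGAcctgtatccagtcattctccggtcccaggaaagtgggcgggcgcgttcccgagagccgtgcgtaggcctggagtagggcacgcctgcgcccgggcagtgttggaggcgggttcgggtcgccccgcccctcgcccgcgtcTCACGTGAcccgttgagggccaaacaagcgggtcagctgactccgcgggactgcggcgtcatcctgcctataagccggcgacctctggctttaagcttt
Cdkn1a, start 1, chr17:29090729-29090978, plus strand: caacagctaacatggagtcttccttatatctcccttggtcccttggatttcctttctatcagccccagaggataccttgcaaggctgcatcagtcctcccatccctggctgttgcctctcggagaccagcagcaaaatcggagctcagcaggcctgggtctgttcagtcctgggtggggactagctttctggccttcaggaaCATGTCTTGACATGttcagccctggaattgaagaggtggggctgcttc

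Among all 32851 such windows in the table, 6.75% held the AP-1 motif, 10.6% the PU.1 motif, 3.13% the CLEAR-type E-box, 3.25% the M-box, 12.4% the TATA box and 0.49% the paired p53 core. The window of Trem2 had an AP-1 match at positions -9 to -3, counted from the start, and a PU.1 match at -41 to -35. The 2 windows of Mmp12 together held an AP-1 match, at -44 to -38 of the second start, a PU.1 match and an M-box match. Both matches of Ctsk were to the PU.1 motif, on opposite strands. The 3 CLEAR-type matches of Ctsd stood at 2 places, since a pair of them overlap on opposite strands. The p53 core of Cdkn1a lay at -48 to -35 of its first start. Of the 12 genes with the largest rise, all of which had a window, 5 held the PU.1 motif (Mmp12, Trem2, S100a8, Tnc and Ctsk), 3 the AP-1 motif (Mmp12, Trem2 and Slfn4) and 1 the p53 core, in at least 1 of their windows. Over all 27025 genes in the table the shares were 12%, 7.82% and 0.57%. The 5 genes shown all held a match, while the windows of Gpnmb and of the second start of Cdkn1a, not shown, held none. Of 9 risen genes of the lysosome list 1 (Ctsd) held the CLEAR-type E-box, against 3.58% of all genes. Of 5 risen p53 targets with a window 1 (Cdkn1a) held the p53 core. These matches are descriptions of letters, and binding was not measured.

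Mmp12 rose to 8.44 and 7.73 in the A/J male and female pools at 6 weeks, 9.22 in the C57BL/6 pool, and 8.61 and 8.45 in the C3H/HeJ male and female pools, against 4.49, 5.37 and 5.96 (lowest, median and highest) in the 6 control pools. The groups did not overlap, and the lowest late pool stood well above the highest control. The change was 3.23 (SE 0.27, adjusted p = 0.000198), a 9.36-fold difference. Trem2 had a log2 signal of 6.48, 6.04, 7.54, 6.43 and 6.93 in the late pools, in the same order, against 4.39, 4.60 and 4.79 in controls, with a change of 2.15 (SE 0.21, adjusted p = 0.000356). Its control signals were narrow and near the bottom of the scale, and all 5 late pools were above them. Gpnmb had 9.39, 8.99, 10.05, 9.67 and 9.36 in the late pools and 6.44, 7.44 and 8.08 in controls, a change of 2.09 (SE 0.26, adjusted p = 0.00328). Its C3H/HeJ controls, 8.03 and 8.08, were the highest of its controls. Ctsk had 9.03, 9.27, 9.15, 9.53 and 9.53 in the late pools against 7.23, 8.19 and 8.29 in controls, a change of 1.26 (SE 0.12, adjusted p = 0.000356). Here too the groups did not overlap, and the 2 lowest controls were the C57BL/6 pools. The 8 pools at 3 weeks had 7.75, 8.09 and 9.02 for Mmp12 (lowest, median and highest) and 9.13, 9.66 and 10.18 for Gpnmb, and neither gene was called between 6 and 3 weeks (adjusted p = 0.75 and 0.818).

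**Figure D2:**
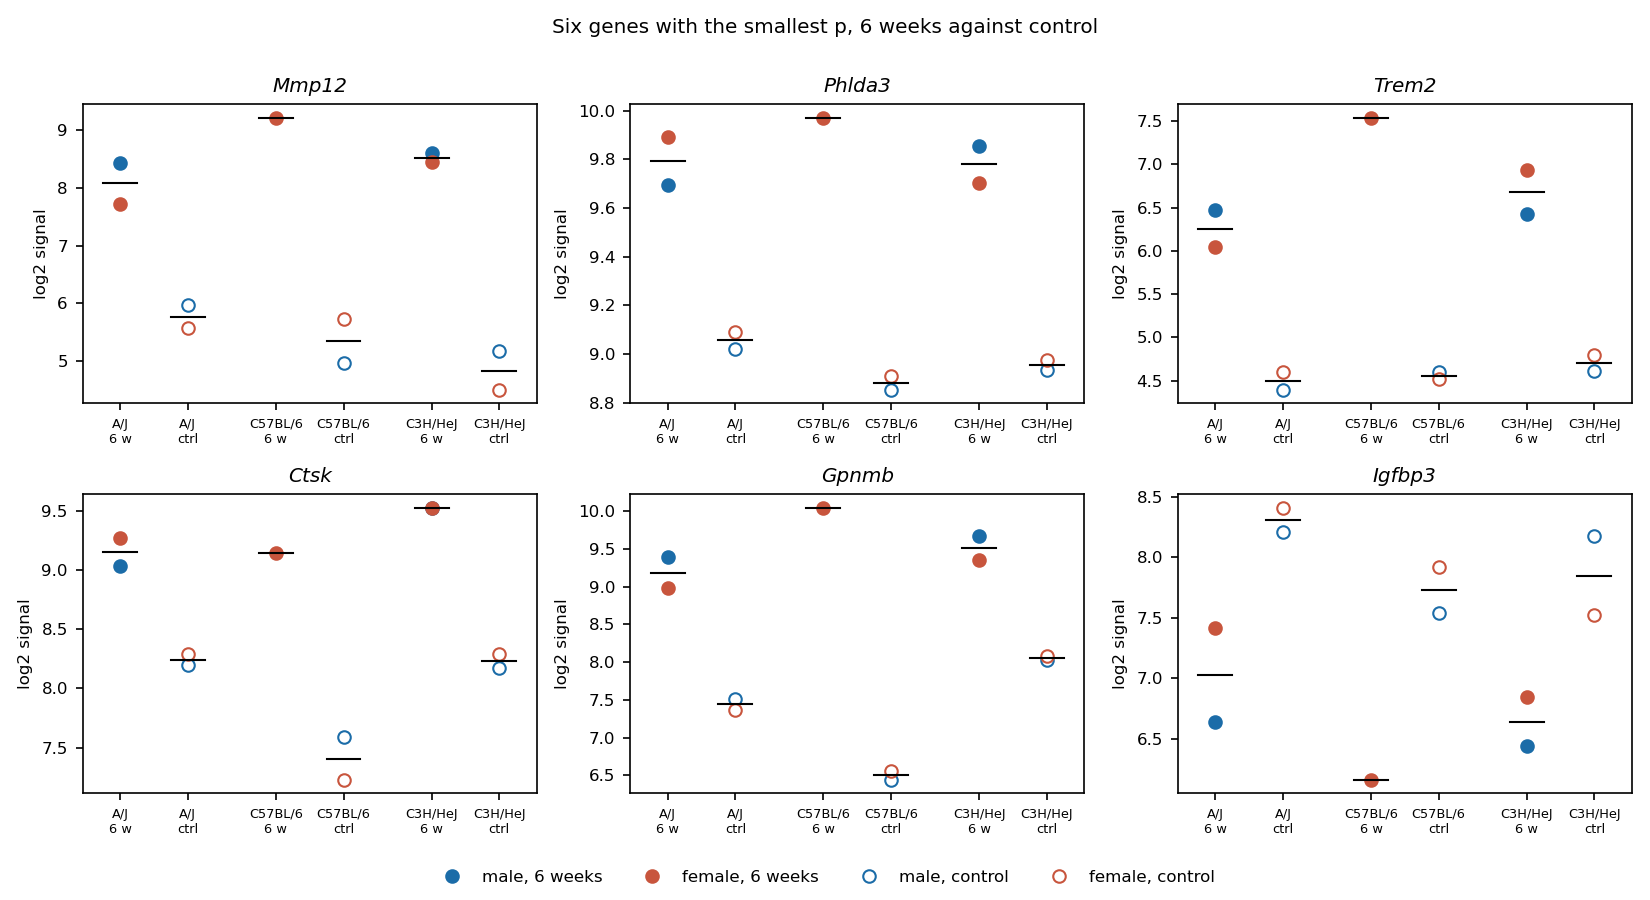
Log2 signal (y axis) of the 6 genes with the smallest p in the comparison of 6 weeks with control, for each pool, by strain (x axis), with filled points for 6 weeks and open points for controls, blue for males and red for females, and bars for the mean of the pools. In every panel the 5 late pools lie on 1 side of the 6 controls, above them for Mmp12, Phlda3, Trem2, Ctsk and Gpnmb and below them for Igfbp3. The genes were chosen by p on these same arrays, so this separation follows largely from the choice. Of the 123 called genes 64 had no overlap.

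Of 30 tested genes of lipid-associated macrophages and lysosomes, 9 rose and none fell, against 1.04% of all genes that rose, and their median change was 0.34. Besides Mmp12, Trem2, Gpnmb and Ctsk these were Ctsd, at 0.77 (SE 0.12, adjusted p = 0.00773), Lgals3, the secreted lectin galectin-3, at 0.63 (SE 0.09, adjusted p = 0.0074), the lysosomal mannosidase Man2b1 at 0.63, the cathepsin Ctsl at 0.45 and the progranulin gene Grn at 0.29. On the deposited scaling 5 of the 30 were called. Of 32 general macrophage genes 9 rose and 1 fell, against 1.04% and 0.319% of all genes, with a median change of 0.49. Msr1, a scavenger receptor for modified lipoproteins, had 6.98, 6.90, 6.64, 6.78 and 7.0 in the late pools against 4.91, 5.82 and 6.29 in controls, a change of 1.10 (SE 0.14, adjusted p = 0.00352). A second, dimmer probe set of Msr1 changed by only 0.19 (limma, unadjusted p = 0.593), so the size of its rise rests on 1 probe set. Mpeg1, the pore-forming perforin-2 of macrophages, rose by 0.83 (SE 0.11, adjusted p = 0.00385), but its groups overlapped, since the C3H/HeJ controls were at 10.02 and 9.94 and the A/J late pools at 9.56 and 9.74. Fcgr3, an Fc receptor, rose by 1.13, Ms4a6d by 1.02, the C-type lectins Clec4d and Clec4n by 0.89 and 0.75, and Tyrobp, the signalling adaptor of Trem2, by 0.66. The member that fell was Krt79, a keratin gene that mouse alveolar macrophages express, with a change of -0.92 (SE 0.18, adjusted p = 0.0266). Other genes of the list known from resident alveolar macrophages pointed both ways. The integrin gene Itgax rose by 0.57 (adjusted p = 0.0486). Those not called had -0.67 for the scavenger receptor Marco (adjusted p = 0.335), -0.55 for Fabp4 (adjusted p = 0.0734), -0.27 for Car4, -0.13 for Chil3, -0.0045 for Plet1, 0.29 for Fabp5, 0.33 for Siglec1 and 0.33 for Mrc1. The summed linear signal of the macrophage list was 21262 to 26621 at 6 weeks and 18497 to 22198 in controls. In the fit that left out the C57BL/6 late array, 5 macrophage genes and 7 of the lysosome list were higher.

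Krt79 was lowest in C57BL/6 both at 6 weeks and in controls. It had 8.84, 8.74, 6.03, 9.40 and 9.32 in the late pools, against 7.88, 9.41 and 9.99 in controls, and the C57BL/6 controls were at 7.88 and 8.06. Each late pool lay 0.51 to 2.03 below the control of its strain and sex, although the groups as a whole overlapped. Its call was lost without the A/J male (adjusted p = 0.056), C57BL/6 male (adjusted p = 0.051) or C3H/HeJ male (adjusted p = 0.0541) control.

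Neutrophil genes had positive median changes in all 3 strains, 0.83 (A/J), 0.73 (C57BL/6) and 0.40 (C3H/HeJ). Of 14 tested, 6 rose and none fell, against 1.04% of all genes that rose, with a median change of 0.61. The summed signal was 4957 to 9538 at 6 weeks against 2785 to 4152 in controls, so that the groups did not overlap. Such a sum is carried by its brightest members, S100a8 and S100a9 among them, so it is no separate support of the calls. The 8 members not called had -0.07 (Fpr2), 0.04 (Ncf1), 0.17 (Mmp9), 0.25 (Ltf), 0.32 (Mpo), 0.60 (Mmp8), 0.62 (Il1r2) and 0.83 (Camp). S100a9 and S100a8 encode the subunits of calprotectin, the most abundant cytosolic protein of neutrophils. S100a9 had 11.64, 10.82, 10.30, 10.52 and 9.99 in the late pools against 8.66, 8.84 and 9.79 in controls, a change of 1.62 (SE 0.26, adjusted p = 0.0102). The A/J pools were the highest, and the lowest late pool, C3H/HeJ female, lay just above the highest control, C3H/HeJ male. S100a8 changed by 1.53 (SE 0.24, adjusted p = 0.00816). Csf3r, the receptor for the growth factor G-CSF, changed by 0.97, the granule protein gene Ngp by 0.83, Ncf4, a subunit of the NADPH oxidase, by 0.56, and Lcn2, which sequesters bacterial siderophores, by 1.10. Ngp had 8.27 to 8.47 over the late pools and 7.29 to 7.88 in controls. Each of the 6 was also called when any single array was left out. On the deposited scaling Ncf4 lost its call (adjusted p = 0.324) and the 5 others kept it.

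The rises among matrix genes were mostly modest in size. Of 60 tested collagens and matrix genes 10 rose and none fell, against 1.04% of all genes that rose, with a median of 0.21. Tnc, the glycoprotein tenascin C that appears in healing tissue, had 6.99, 6.89, 8.42, 7.14 and 7.49 in the late pools against 5.79, 5.96 and 6.31 in controls. That is a change of 1.44 (SE 0.21, adjusted p = 0.00657), with the C57BL/6 pool highest and no overlap. Col4a1 and Col4a2 of basement membranes rose by 0.51 (SE 0.08, adjusted p = 0.00773) and 0.46, the collagen-binding Sparc by 0.39 and Tgfbi by 0.69. The fibrillar collagen Col1a1 had 8.85, 8.76, 10.79, 9.32 and 8.80 in the late pools and 8.31, 8.54 and 9.57 in controls. The groups overlapped across strains, because both C57BL/6 controls, at 9.42 and 9.57, were above 4 of the 5 late pools. Within strains the change was 0.67 (SE 0.14, adjusted p = 0.0364), and Fn1, fibronectin, changed by 0.74 (SE 0.16, adjusted p = 0.039). Without the C57BL/6 late array the adjusted p was 0.125 for Col1a1 and 0.103 for Fn1, and leaving out any of 8 arrays for Col1a1 and 7 for Fn1, controls of each strain among them, lost the call. Col5a2 rose by 0.80, Col1a2 by 0.44 and the collagen crosslinking enzyme Lox by 0.84, while Col3a1 had a change of 0.39 with an adjusted p of 0.0663. Of the 60, 5 were higher without the C57BL/6 late array, and 5 were higher and 1 lower on the deposited scaling.

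Proteases that remodel matrix and their inhibitors had 6 rises and no fall among 33 tested genes, where 1.04% of all genes rose. The median of the list was 0.33. The rises were those of Mmp12, Ctsk, Ctsd and Ctsl, which also stand in the lysosome list, the membrane protease Adam8 at 0.57, and Mmp2, the gelatinase of fibroblasts. Mmp2 had 9.46, 9.72, 10.18, 9.75 and 9.89 in the late pools and 8.88, 9.07 and 9.34 in controls, a change of 0.72 (SE 0.11, adjusted p = 0.00773), with no overlap, and 0.39 on a dimmer probe set. The inhibitor Timp1 had 7.30, 6.96, 9.21, 7.61 and 7.41 in the late pools against 6.60, 6.91 and 7.12 in controls. Its change of 0.92 (SE 0.23) missed the threshold, with an adjusted p of 0.0648, and the C57BL/6 pool was far above the others. None of 39 genes of the TGF-beta, BMP and activin pathway was called (2 were lower on the deposited scaling), where 1.35% of all genes were. At that share a list of this length would hold few calls or none, so the count says little. An unadjusted p under 0.05 (limma) was seen for 12 of the 39, against 1342 of all 9079 genes. Tgfb1 itself had a change of 0.34 (SE 0.18, adjusted p = 0.417). Of 21 smooth muscle and myofibroblast genes S100a4 was called, at 0.72 (SE 0.10, adjusted p = 0.00657), where 1.35% of all genes were called. The median of the list was -0.10, and 8 of the 21 had a change above 0. Smooth muscle actin, Acta2, had a change of 0.00 (adjusted p = 0.994).

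Targets of p53, the transcription factor that answers DNA breaks, included 6 rises and no fall among 34 tested, where 1.04% of all genes rose. The median of the list was 0.14. Phlda3, an inhibitor of the kinase Akt, had 9.69, 9.89, 9.97, 9.85 and 9.70 in the late pools against 8.85, 8.96 and 9.09 in controls. Its change of 0.86 (SE 0.08, adjusted p = 0.000272) came with differences of 0.67 to 1.06 over the 5 pairs, and the groups did not overlap. Cdkn1a had 9.29, 9.47, 10.60, 9.38 and 9.50 in the late pools against 8.15, 8.30 and 8.75 in controls, a change of 1.30 (SE 0.20, adjusted p = 0.00773). The C57BL/6 pool stood above the 4 others, which lay close together and above all controls. Psrc1, a p53-inducible gene for a microtubule-binding protein, changed by 1.56 (SE 0.28, adjusted p = 0.0177), or an adjusted p of 0.102 without the C57BL/6 late array, and a second probe set had 0.45. Aen, a nuclease of apoptosis, rose by 0.52, with 0.36 and 0.09 on its dimmer probe sets, the RNA-binding protein gene Zmat3 by 0.59 and the stress sensor gene Sesn2 by 0.67. Mdm2, which encodes the ubiquitin ligase of p53, had 0.14 (adjusted p = 0.669) and Gadd45a had -0.24 (adjusted p = 0.456). On the deposited scaling 3 of the 34 were called, and 4 without the C57BL/6 late array. None of 24 genes of bleomycin handling and DNA break repair was called, where 1.35% of all genes were, and 3 had an unadjusted p under 0.05 (limma). Blmh, bleomycin hydrolase, had a change of -0.15 (SE 0.10, adjusted p = 0.537).

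Cytokines, complement and interferon-induced genes each held a few rises, where 1.04% of all genes rose. Of 25 chemokines and cytokines 5 rose. Il1b, interleukin 1 beta, had 8.52, 8.12, 8.03, 8.16 and 8.12 in the late pools against 7.30, 7.36 and 7.78 in controls, a change of 0.72 (SE 0.12, adjusted p = 0.0149) with no overlap. Its antagonist Il1rn rose by 0.51, with 0.20 and 0.16 on its dimmer probe sets, the monocyte chemokines Ccl8 and Ccl6 by 0.80 (adjusted p = 0.00733) and 0.76, and the receptor Ccr1 by 0.83. Of 20 complement and acute phase genes Lcn2 and the receptors C3ar1 and C5ar1 rose, the receptors by 0.96 and 0.57. Saa3, serum amyloid A3, had a change of 1.20 (SE 0.28) with an adjusted p of 0.054. Of 33 interferon-stimulated genes 3 rose, namely Irf7 by 0.71, Oas1a by 0.59 and Ifit1 by 0.58. Without the C57BL/6 late array 2 chemokine genes, 1 complement gene and no interferon-stimulated gene was called, and the last count was also 0 without the C3H/HeJ female late array. In the fit without the C57BL/6 array the adjusted p was 0.089 for Ccl6, 0.166 for Il1rn, 0.0888 for C3ar1, 0.176 for C5ar1, 0.181 for Irf7 and 0.185 for Oas1a and for Ifit1. Each of these 7 calls was also lost without any of 6 or more other arrays, controls included. The calls of Il1b and Ccl8 held without each array in turn.

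A few of the largest rises lay outside these groups. Npy, the peptide transmitter neuropeptide Y, had 6.29, 6.77, 6.84, 6.77 and 6.83 in the late pools against 4.67, 4.94 and 5.83 in controls. The change was 1.62 (SE 0.20, adjusted p = 0.00328), with the A/J male pool lowest and still above the highest control, the A/J male. Slfn4, a Schlafen family gene of myeloid cells, had 7.91, 8.01, 7.61, 8.01 and 8.50 against 6.03, 6.54 and 7.75 in controls, a change of 1.27 (SE 0.16, adjusted p = 0.00352). The C57BL/6 late pool lay below the highest control, the C3H/HeJ male, so the groups overlapped across strains. Pla2g7, the lipase that inactivates platelet-activating factor, changed by 1.22 (SE 0.26, adjusted p = 0.0429). It was no higher in the C3H/HeJ male pool than in its control (a difference of -0.01), and its adjusted p was 0.194 without the C57BL/6 late array. Leaving out any of 8 single arrays, that one among them, lost the call. None of 45 cell cycle genes was called, where 1.04% of all genes rose, and 3 were called higher when arrays were brought to one median instead. At that share a list of this length would hold few calls or none, so the count says little. Of the 45, 40 had a change above 0. An unadjusted p under 0.05 (limma) was seen for 18, against 1342 of all 9079 genes. The median change of the list was 0.24, with a summed signal of 7670 to 8537 at 6 weeks and 6456 to 7971 in controls.

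The largest fall was that of Igfbp3, which encodes a carrier of insulin-like growth factors in plasma and tissue. It had 6.63, 7.41, 6.16, 6.44 and 6.84 in the late pools against 7.52, 8.05 and 8.41 in controls, a change of -1.33 (SE 0.16, adjusted p = 0.00328), and control signal was 2.51 times that at 6 weeks. The groups did not overlap. Igfbp5, a related binding protein gene, had 9.18, 8.81, 9.03, 9.05 and 9.17 in the late pools against 9.37, 9.79 and 10.04 in controls, a change of -0.70 (SE 0.11, adjusted p = 0.00816), also without overlap. A second, dimmer probe set of Igfbp5 had -0.07 (limma, unadjusted p = 0.734), so its fall was seen on 1 of 2 probe sets. Igf1, the ligand, had a change of 0.57 with an adjusted p of 0.0734. Igfbp3 and Igfbp5 were the calls among 13 genes of this axis, where 1.35% of all genes were called.

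The other falls were smaller. Acaa1b, a peroxisomal thiolase of fatty acid oxidation, changed by -0.81 (SE 0.13, adjusted p = 0.0108) and Fabp1, a fatty acid binding protein, by -0.80 (SE 0.15, adjusted p = 0.0249). Car3, a carbonic anhydrase abundant in adipocytes and muscle, had 9.05, 9.38, 9.08, 9.82 and 9.50 in the late pools against 9.86, 10.09 and 10.57 in controls, a change of -0.79 (SE 0.15, adjusted p = 0.0261). Its groups did not overlap, although the difference within C3H/HeJ males was -0.04. Of 26 adipocyte and lipid synthesis genes it was the one called, where 1.35% of all genes were. On the deposited scaling 4 of 25 were lower, with arrays brought to one median 2, and without the C57BL/6 late array 0. Of 26 metallothionein, glucocorticoid and fasting genes Igfbp3, Acaa1b and Fabp1 fell and Lcn2 rose, against 0.319% and 1.04% of all genes. The ephrin receptor gene Epha1 changed by -0.76, the matrix protein gene Abi3bp by -0.70 and AU021092 by -0.74. Without the C57BL/6 late array the adjusted p was 0.0622 for Acaa1b, 0.0936 for Fabp1, 0.132 for Car3, 0.0659 for Epha1, 0.109 for Abi3bp and 0.0882 for AU021092. Calls were also lost without any of 3 other arrays for Fabp1, 4 for Car3 and 5 for Abi3bp.

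**Figure D3:**
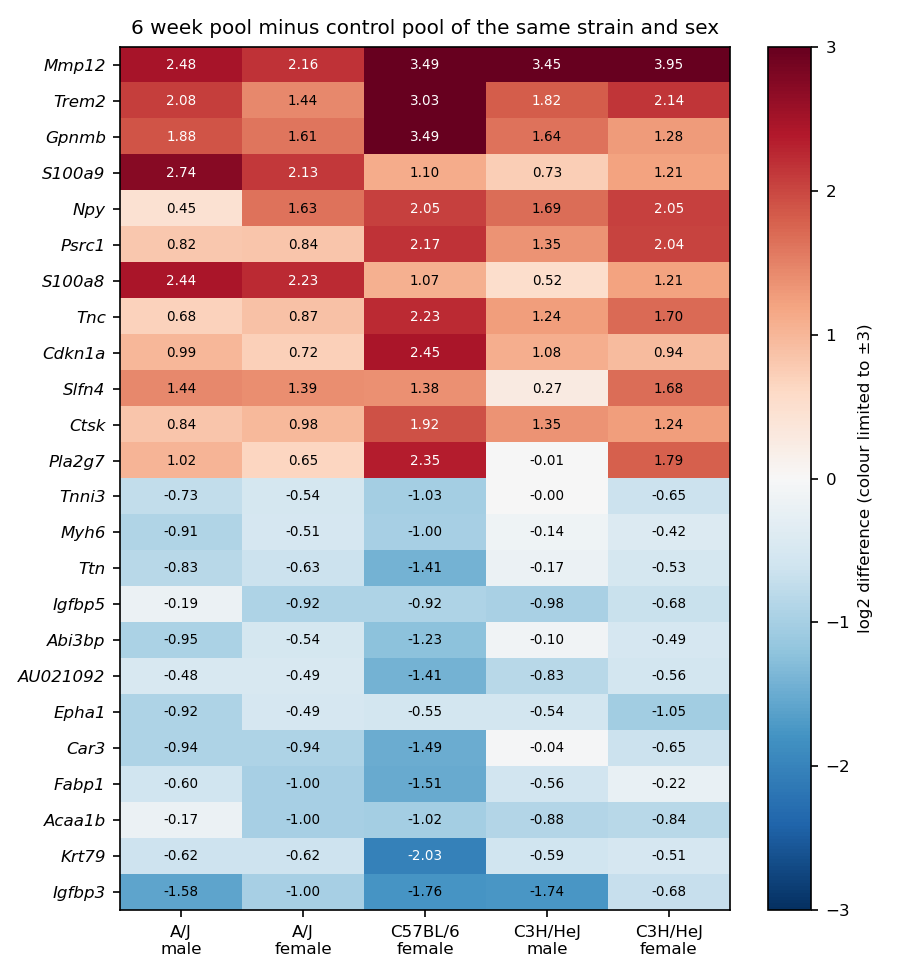
Log2 difference of each 6 week pool from the control pool of the same strain and sex (columns) for the 12 genes with the largest called rise and the 12 with the largest called fall (rows), with the colour limited to ±3. The 12 rises are positive in all pairs apart from Pla2g7 in C3H/HeJ males at -0.01, the 12 falls are negative in all pairs, and the falls in C3H/HeJ males include values near 0 for Tnni3 and Car3.

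The lung lies close to the heart, and its large veins carry heart muscle in mice. Of 34 tested genes of heart and skeletal muscle 7 fell, none rose and 27 were not called, against 0.319% of all genes that fell. Of those not called, 4 had a change above 0 (Acta1, Casq1, Nppb and Ankrd1). The list had a median of -0.31 and a summed signal of 5236 to 9934 at 6 weeks and 9500 to 12883 in controls. Myh6, the alpha heavy chain of cardiac myosin, had 8.59, 8.75, 7.76, 8.46 and 8.45 in the late pools against 8.60, 8.83 and 9.51 in controls, a change of -0.62 (SE 0.11, adjusted p = 0.0201). The late A/J female pool overlapped with the C3H/HeJ male control, and the C57BL/6 pool was the lowest. Tnni3 and Tnnc1, cardiac troponins, changed by -0.62 and -0.52, the giant muscle protein gene Ttn by -0.66, cardiac actin Actc1 by -0.61, Fabp3 by -0.62 and Sln, a regulator of the calcium pump, by -0.56. Without the C57BL/6 late array none of the 34 was called, although their median stayed at -0.25, and without the C3H/HeJ female late array 2 were. In the fit without the C57BL/6 array the adjusted p was 0.0952 for Myh6, 0.0974 for Tnni3, 0.131 for Tnnc1, 0.188 for Actc1, 0.213 for Sln and 0.216 for Ttn. The call of Myh6 was also lost without the A/J male control (adjusted p = 0.0579), and those of Tnni3, Tnnc1, Actc1, Sln and Ttn without any of 3 or more further arrays. How much heart or vein muscle the pools held was not measured in another way.

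B cell and endothelial genes held 2 falls each, where 0.319% of all genes fell. Of 18 genes of B and plasma cells the B cell surface genes Ms4a1 (CD20) and Cd79a fell. Ms4a1 had 7.04, 7.73, 7.42, 7.18 and 7.58 in the late pools against 7.78, 8.0 and 8.15 in controls, a change of -0.57 (SE 0.12, adjusted p = 0.0393), and Cd79a one of -0.57 (SE 0.13, adjusted p = 0.0473). Their adjusted p was 0.176 and 0.216 without the C57BL/6 late array, and leaving out any of 8 other arrays also lost either call. The summed signal of the list was 7348 to 10178 at 6 weeks and 5649 to 10291 in controls, and the list also holds the antibody genes Igha and Jchain described below. Of 44 endothelial genes 2 fell and 7 had a change above 0, with a median of -0.17. Tek, the angiopoietin receptor, had 9.63, 9.53, 9.04, 9.77 and 9.58 in the late pools against 9.82, 10.00 and 10.16 in controls, a change of -0.53 (SE 0.09, adjusted p = 0.0149) without overlap. Aplnr, the apelin receptor, changed by -0.45 (SE 0.09, adjusted p = 0.0249), or an adjusted p of 0.112 without the C57BL/6 late array, and its call was lost without any of 4 control arrays as well. None of 22 genes of T and NK cells was called, where 1.35% of all genes were, a share at which so short a list may hold none.

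Among epithelial identity genes none of 33 type 2 alveolar, 20 type 1 alveolar, 24 airway secretory and 13 ciliated cell genes passed the test, with medians of 0.00, 0.03, -0.17 and -0.15, where 1.35% of all genes passed. At that share lists of this length would hold few calls or none, so the absence of calls says little. In the same order, 6, 8, 13 and 5 genes had an unadjusted p under 0.05 (limma), against 1342 of all 9079 genes. A change above 0 was seen for 17, 11, 6 and 3 of them. Of the airway secretory genes 3 were called lower on the deposited scaling, and 1 with arrays brought to one median, without the C57BL/6 late array or without the C3H/HeJ female late array. Sftpc and Scgb1a1 lay at the top of the scale, at 12.67 or more on each of the 11 arrays, and there quantile normalization leaves little room for a difference. Of 17 keratins and genes of injured epithelium Lcn2, Lgals3 and Cdkn1a rose, where 1.04% of all genes rose. Other cell types also express each of them, and other lists hold them. No gene was called among 36 antioxidant and xenobiotic genes, 15 clock genes, 36 immediate early and heat shock genes, 22 antigen presentation genes, 13 red cell genes and 6 mast cell and eosinophil genes. At the 1.35% of all genes that were called, lists this short would hold few calls or none, so these counts say little. On the deposited scaling 2 antioxidant genes and 1 gene each of the clock, immediate early and red cell lists were called lower.

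**Figure D4:**
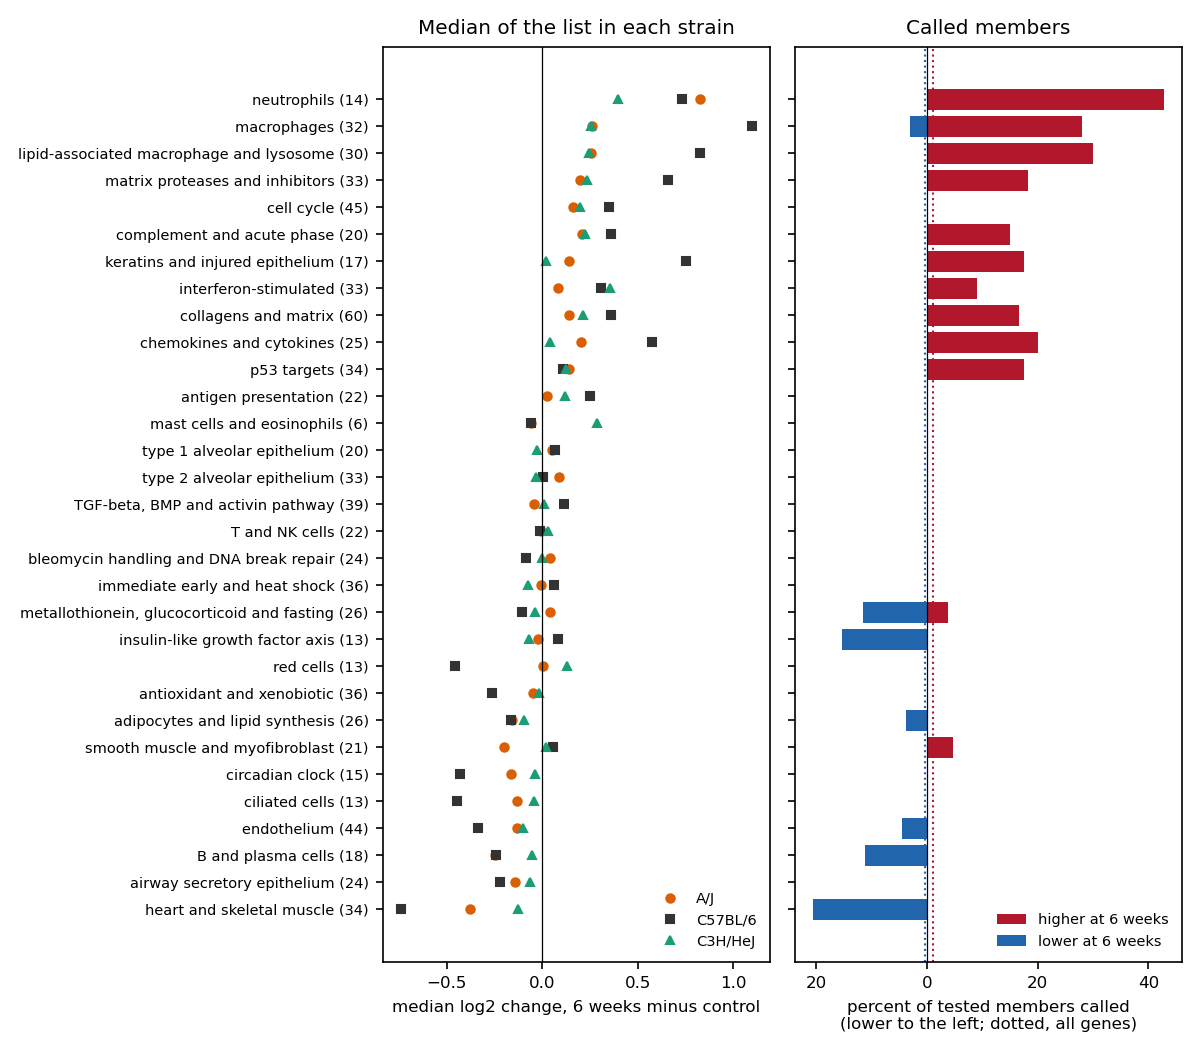
Left, median log2 change (x axis, 6 weeks minus control) of each gene list (rows, with the number of genes tested) within A/J, C57BL/6 and C3H/HeJ. Right, percent of tested members called higher (red, to the right) or lower (blue, to the left), with dotted lines at the 1.04% and 0.319% of all genes. Neutrophil, macrophage and lysosome lists lie to the right in each strain and the muscle list to the left, where C57BL/6, which has 1 array, lies farthest.

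Set directly against the 8 pools at 3 weeks, the late lungs differed in few genes. At 3 weeks the A/J male pool at 80 mg/kg and the A/J female pool at 100 mg/kg had no late counterpart. The C57BL/6 male pool had none either, and the fit had no term for dose or sex. Of 9079 genes 16 were called (0.176%), 5 higher at 6 weeks (0.0551%) and 11 lower (0.121%), and 711 had an unadjusted p under 0.05. On the deposited scaling 9 were higher and 4 lower, an upward share of 69.2% against 31.2%, with the median of all genes shifted by 0.179. The 5 largest falls were those of Marco, Saa3, Timp1, Lcn2 and Serpina3n. Saa3, an acute phase protein gene, had 7.58, 6.92, 8.53, 7.06 and 6.76 at 6 weeks against 8.47, 8.98 and 9.93 at 3 weeks, a difference of -1.64 (SE 0.17, adjusted p = 0.000282). The C57BL/6 late pool alone reached the range of 3 weeks, and controls had 5.60, 6.25 and 6.54, below every late pool. Marco had 4.88, 5.70, 5.50, 5.96 and 6.54 at 6 weeks, against 5.96, 7.65 and 8.25 at 3 weeks, a difference of -1.76 (SE 0.25, adjusted p = 0.00357). The late pools lay within or below the range of controls, 5.60, 6.21 and 7.30. Timp1 differed by -1.03 (SE 0.14, adjusted p = 0.00296), the protease inhibitor gene Serpina3n by -0.91 and Lcn2 by -1.0. Lcn2 had 9.76, 9.64, 11.005, 9.75 and 9.69 at 6 weeks, against 10.63, 10.86 and 11.43 at 3 weeks. It is 1 of 2 genes called against both 3 weeks and control, where it had 8.33, 9.09 and 9.26, and its late levels stood between the others in A/J and C3H/HeJ. In C57BL/6 the late pool lay within the 10.95 and 11.04 of the pools at 3 weeks.

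The remaining falls from 3 weeks were Ccl9 at -0.74, Ccl17 at -0.58, both chemokines, the cholesterol hydroxylase gene Ch25h at -0.82, the antiviral gene Rsad2 at -0.85, and Rrm2 and Pttg1, genes of dividing cells, at -0.86 and -0.59. Genes higher at 6 weeks than at 3 weeks were led by those of secreted antibodies. Igha, the heavy chain of immunoglobulin A, had 11.36, 11.48, 9.94, 11.12 and 10.65 at 6 weeks against 8.29, 10.10 and 10.998 at 3 weeks, a difference of 1.08 (SE 0.14, adjusted p = 0.00296). Jchain, which joins immunoglobulin A into dimers, differed by 0.95 (SE 0.13, adjusted p = 0.00296). C57BL/6 had the lowest values of both genes at each stage, and neither was called against control, where the Igha change was 0.69 (adjusted p = 0.208). Sln differed by 0.61 (SE 0.11, adjusted p = 0.0416), and it is the other gene called in both comparisons, lower than control at 6 weeks. Cyp2s1, a cytochrome P450 of airways, differed by 0.54 (SE 0.10, adjusted p = 0.0355) and Tppp3, a tubulin-binding protein of ciliated cells, by 0.49 (SE 0.08, adjusted p = 0.0134). Without the A/J arrays no gene was called, and without the C57BL/6 late array or the C3H/HeJ female late array 10 were.

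**Figure D5:**
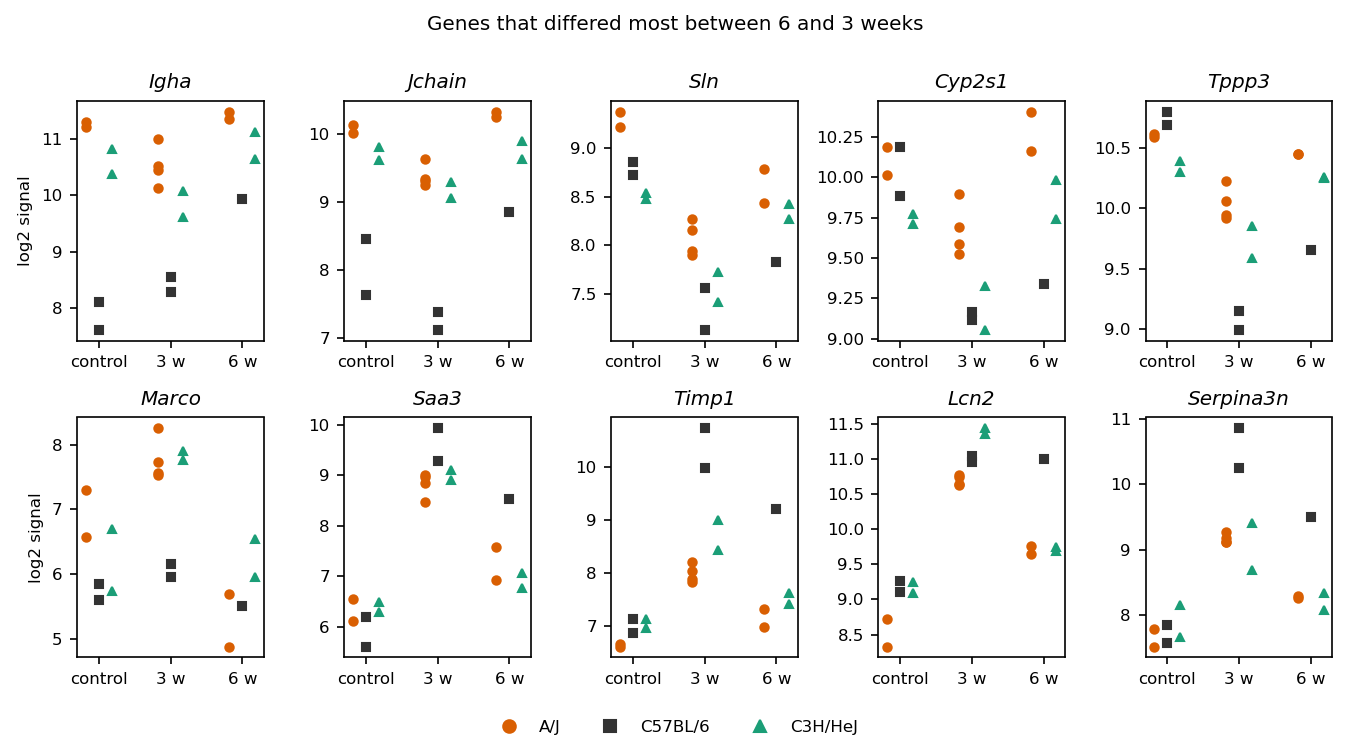
Log2 signal (y axis) of the 5 genes with the largest called rise and the 5 with the largest called fall at 6 weeks against 3 weeks, for each pool, by stage (x axis, control, 3 weeks, 6 weeks) and strain (orange circles A/J, black squares C57BL/6, green triangles C3H/HeJ). Saa3, Timp1 and Serpina3n are highest at 3 weeks in each strain, Lcn2 in A/J and C3H/HeJ, and Igha and Jchain are lower at 3 weeks than at 6 weeks in each strain.

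The change at 6 weeks was also compared between strains in a fit of all 21 arrays with a term for sex. An F test called 7 genes of 9079 (0.0771%), with 482 at an unadjusted p under 0.05. Since C57BL/6 had 1 late array, it was assumed to vary like the other groups. Gpnmb, the one gene also called in the pooled comparison, changed by 1.75 (SE 0.19) in A/J, 3.60 (SE 0.23) in C57BL/6 and 1.46 (SE 0.19) in C3H/HeJ (F test, adjusted p = 0.00599). Its late levels were 8.99 to 10.05 over all pools, and its controls were lowest in C57BL/6, at 6.44 and 6.56. For Ccl9 the change was 0.49 in A/J, against 2.14 in C57BL/6 and 0.43 in C3H/HeJ. In the same order the complement gene C1qc changed by 0.42, 2.37 and 0.42, and Csf2rb2, a receptor subunit for interleukin 3, by 0.31, 1.91 and 0.23. Inmt, an amine methyltransferase gene strongly expressed in lung, changed by -0.03, -1.07 and -0.04, and Bex2 by -0.57, -3.06 and -0.51. In these the C57BL/6 array was the one that differed. Otud7a, a deubiquitinase gene, changed by 0.57, -1.38 and 1.73. Its signals were near the bottom of the scale in the C57BL/6 late pool, at 4.66, and in the C3H/HeJ controls, at 4.94 and 4.86. The C57BL/6 pools at 3 weeks had 6.64 and 6.30. Between pairs of strains, 10 genes were called for C57BL/6 minus A/J (0.11%), 9 for C57BL/6 minus C3H/HeJ (0.0991%) and 0 for A/J minus C3H/HeJ. S100a9 changed by 2.43 (SE 0.35) in A/J, 1.37 (SE 0.44) in C57BL/6 and 0.97 (SE 0.35) in C3H/HeJ, differences that the F test did not call (adjusted p = 0.828). Without the C57BL/6 late array 0 genes were called by the F test, and 221 had an unadjusted p under 0.05. Counts also moved to 2 without the C57BL/6 male control, 12 without the A/J female 3 week pool at 125 mg/kg and 21 without the C3H/HeJ male late array.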

How the data were processed

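RNA of 21 pooled lung samples had been measured on Affymetrix mouse arrays. The deposited values were linear intensity per probe set, at least 0, and neither the summary software nor the scaling by the authors is given in the sources used here. Of 22690 probe sets, 64 control sets were left out, and 20380 of the other 22626 had 1 gene symbol, 691 had several and 1555 had none. Values were quantile normalized over 21 arrays and turned into log2(intensity + 16), the dimmest 33.3% of probe sets by mean were left out, and the brightest set of each gene was kept. Fold changes of dim genes are understated on this scale. R 4.3.3 with limma 3.58.1 (lmFit, eBayes with trend, two-sided) fitted 11 arrays for 6 weeks against control and 13 for 6 against 3 weeks, with strain as a term, and 21 arrays with sex as a term for strain differences. P-values were adjusted by Benjamini-Hochberg over 9079 genes, with a threshold of 0.05. The scripts were tested on simulated data. The number of arrays limits the precision.

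Genes were named by rule: the 12 largest called rises and falls, up to 4 called members of each gene list by p, 16 fixed genes, the 5 largest rises and falls against 3 weeks, and the 5 smallest p between strains. Other named genes were chosen after their values were seen. The members and lists were chosen with earlier results of these data known. Alternatives covered scaling, offset, filter, covariates, array weights, probe sets and left-out arrays or strains, and the list counts without single arrays or under other scalings were added after seeing the data.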

Additional observations from a re-analysis of the deposited data

Results flagged for a closer look

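Single arrays stood far from the rest of their group for 21 of 166 gene and group combinations checked. The rule used would mark about 1 in 20 groups of like, independent values by chance, but these groups mix strains and the genes were named for their changes, so that rate is no expectation here. Of the 21, 15 fell on the C57BL/6 female array at 6 weeks, the one late array of its strain. It had the highest log2 signal for Cdkn1a, at 10.60 against 9.29 to 9.50 on the 4 other late arrays, for Timp1, at 9.21 against 6.96 to 7.61, for Lcn2, at 11 against 9.64 to 9.76, and for Serpina3n, at 9.51 against 8.08 to 8.33. It was also highest for Ccl9, at 9.82 against 8.01 to 8.41, for C3ar1, at 8.61 against 6.86 to 7.18, and for Col1a1, at 10.79 against 8.76 to 9.32. It was the lowest for Krt79, at 6.03 against 8.74 to 9.40, for Fabp1, at 4.80 against 6.58 to 6.95, for Tppp3, at 9.65 against 10.25 to 10.45, and for Otud7a, at 4.66 against 6.39 to 6.68. The same array was lowest for Bex2, at 5.30 against 7.06 to 7.75, for Inmt, at 11.28 against 12.20 to 12.33, for Ncf4, at 7.51 against 8.04 to 8.23, and for Tnnc1, at 7.51 against 8.41 to 8.62. Among the other arrays, the A/J male at 6 weeks was lowest for Npy, at 6.29, and highest for Il1b, at 8.52. In controls the C3H/HeJ female was lowest for Pla2g7, at 4.81, the C57BL/6 female highest for Ttn, at 8.61, and for Irf7, at 7.56, and the C57BL/6 male lowest for Blmh, at 8.05.

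The change at 6 weeks differed between strains by limma's F test for Gpnmb, Inmt, Ccl9, Bex2 and Otud7a, each with an adjusted p of 0.00599, and for C1qc and Csf2rb2, each with an adjusted p of 0.0431. The 2 arrays of moribund C57BL/6 mice, in no comparison above except as part of the fit between strains, had signals above the mean of the C57BL/6 controls for the leading genes. The difference was 2.96 for Mmp12, 3.58 for Trem2, 3.65 for Gpnmb, 1.39 for Ctsk and 1.23 for Phlda3, and it was not tested.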

How the results depend on the processing

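The 123 calls at 6 weeks against control became 77 with no filter on dim probe sets, 329 at an adjusted p under 0.10, 19 without the A/J arrays, 46 without C57BL/6 and 45 without C3H/HeJ. They became 33 with no strain term, 42 with strain and sex as a block, 301 in a fit of all 21 arrays, 3 in male and 2 in female pools, and 47 to 122 with 1 array left out. The 16 calls against 3 weeks became 10 with no dim filter, 0 without A/J (572 at an unadjusted p under 0.05), 4 without C3H/HeJ and 10 to 17 with 1 array left out. The 7 strain calls became 2 on the deposited scaling, 2 on one median, 12 with no sex term, 24 with array weights, 13 at an adjusted p under 0.10 and 0 to 21 with 1 array left out. The counts under the other alternatives stayed within 1.5 times, but not always with the same genes: on the deposited scaling 126 were called against control, 58 of them among the 123, and 13 against 3 weeks, 6 of them among the 16. The cause of these shifts was not tested. The 60 called named genes kept their direction in each of the 30 alternatives that still tested them. Among them 33 kept their call in all 11 fits with 1 array left out, and 1 in every alternative that tested it. Some named genes were left out by the stricter dim filter, or when normalizing over the arrays of the fit only, and were not scored there. The labels number no replicates, so arrays could be matched by strain and sex only, as in the block above, and not by mouse. Genes near the bottom of the scale, such as Trem2 in controls, have signals close to the offset, which limits their fold changes.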
